A study of Homo sapiens with 12 samples.

Results

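Genes for the subunits of the oxidative phosphorylation complexes were followed in the myeloma cell line MM.1S, derived from a plasma cell tumour, through treatment with the kinesin inhibitor filanesib, with pomalidomide plus dexamethasone, and with all 3 drugs. Members were the protein-coding genes with a named row whose symbols begin with NDUFA, NDUFB, NDUFC, NDUFS or NDUFV and a number, with SDHA to SDHD, UQCR, COX4 to COX8 or ATP5. The rule found 25 of the 14884 named genes. They held 5 of the 9 RefSeq protein-coding symbols that fit the complex III pattern, all 17 that fit the complex IV pattern and 3 of the 20 that fit the complex V pattern. None of the 37 symbols of complex I and none of the 4 of complex II had a named row, so these complexes were not analysed here and the comparison ran over complexes III, IV and V. The members of complex V were an inhibitor protein and 2 small membrane subunits, without any of its catalytic subunits.

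The series held 12 Affymetrix arrays, 3 in each of 4 groups exposed for 24 h. FPD cells received 1 nM filanesib, 500 nM pomalidomide and 10 nM dexamethasone. PD cells received 500 nM pomalidomide and 10 nM dexamethasone. F cells received 1 nM filanesib. Their treatment label adds 10 nM dexamethasone, while their title and the shared protocol give the letter F alone. Control cells received vehicle. Separate cultures are not stated for the 3 arrays of any group, and p-values therefore measure only their spread, which can be technical. Filanesib blocks the mitotic kinesin encoded by KIF11, pomalidomide directs IKZF1 and IKZF3 to degradation through cereblon, and dexamethasone is a synthetic glucocorticoid.

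Oxidative phosphorylation couples electron transport along the inner mitochondrial membrane to ATP synthesis. Complex III passes electrons from ubiquinol to cytochrome c, complex IV (cytochrome c oxidase) passes them on to oxygen, and both pump protons that drive complex V, the ATP synthase. The catalytic cores of complexes III and IV are partly encoded by mitochondrial DNA, and the nuclear subunits studied here surround them, stabilise them or tune their activity. Some complex IV subunits exist as a ubiquitous isoform and one restricted to muscle, lung or testis.

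Levels are log2 RMA expression values, and each log2 change subtracts a group mean from another on that scale. Arrays of a group correlated at r = 0.988 to 0.992 across all rows, and array medians lay between 4.23 and 4.27. DDIT4, a glucocorticoid-induced gene, averaged 10.61 in FPD, 10.45 in PD, 5.97 in F and 5.99 in Control cells, so the F arrays lay at the Control level. FKBP5, another such gene, read 6.09 in F replicate 1 against 5.56 and 5.58 in the other F arrays, with 5.54 to 5.60 in Control cells. Of 8 measured plasma cell and myeloma markers, 7 averaged over 1 log2 unit above the highest array median, with MZB1, XBP1 and SDC1 at group means between 10.16 and 11.22. CD27 was the marker that did not. Other plasma cell markers differed between groups, with IRF4 at 10.09 in FPD, 10.21 in PD, 11.21 in F and 11.44 in Control, and SLAMF7 at 10.11 in FPD, 10.17 in PD, 10.75 in F and 10.65 in Control. Of 6 measured myeloid markers, CD68 alone exceeded that margin (10.08 in FPD, 10.24 in PD, 8.65 in F and 8.62 in Control), and LYZ and CD14 stayed between 2.84 and 3.51. Of the other markers measured, CR2 of 3 for B cells (6.01 in FPD, 5.74 in PD, 6.96 in F and 6.97 in Control), CD5, CD7 and CD28 of 5 for T cells, and KRT8 and KRT18 of 3 for stromal and epithelial cells exceeded the margin. The part of these marker differences in the results on FPD and PD cells was not tested.

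Of the 25 members, 18 had a mean over the 12 arrays more than 1 log2 unit above the highest array median. The other 7 averaged 2.70 to 4.51 and cannot be told from background with certainty. They were UQCRB, COX6C, the muscle isoforms COX6A2 and COX7A1, and COX6B2, COX7B2 and COX8C, which are best known from testis. UQCRB and COX6C are textbook components of the enzymes in every tissue, yet their rows read 4.04 to 4.69 and 4.41 to 4.64 over the 12 arrays. RefSeq lists 63 pseudogenes named after 14 of the members, most for COX6C (18), COX5B (8), COX6B1 (7) and COX6A1 (6), and signal from such copies cannot be separated by hybridisation with certainty.

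Under pomalidomide plus dexamethasone, few of the 25 measured members were called and their median change lay near 0. In PD against Control, 1 member was higher (ATP5IF1), 1 was lower (UQCRH) and 23 did not pass the test (limma, adjusted p under 0.05 over all genes). Of all 14884 genes tested, 6.84% were higher and 8.63% lower, against 4% of the members in each direction, so neither share of members stood above the background. The all-gene majority turned with the scaling, at 1018 higher and 1284 lower as reported, 1157 and 1081 after a second quantile normalization, and 865 and 1458 after centring arrays on the median of named genes. The median log2 change was -0.016 over the members and -0.0027 over all genes. By complex, the medians were -0.16 over the 5 genes of complex III, 0.0069 over the 17 of complex IV and 0.041 over the 3 of complex V. Among the 16 members above the level margin that were not called, the 95% intervals reached from -0.44 (COX7B) to 0.66 (COX8A), which allows changes of up to 1.36-fold lower and 1.58-fold higher.

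With all 3 drugs, 1 member was lower in FPD than in Control (UQCRC2) and 0 were higher. The background was 5.89% lower and 7.26% higher over all genes. An unadjusted p under 0.05 was reached by 4 of the 25 members and by 3641 of all 14884 genes, so the members did not stand above the background. The median log2 change was -0.054 over the members and -0.016 over all genes, with -0.081 for complex III, -0.022 for complex IV and -0.067 for complex V. A total of 18 members had a negative change and 7 a positive one, with rows near background included. The signs of the changes over all genes were not counted. The plot of changes by complex shows intervals that cross 0 for most members in both comparisons.

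**Figure D1:**
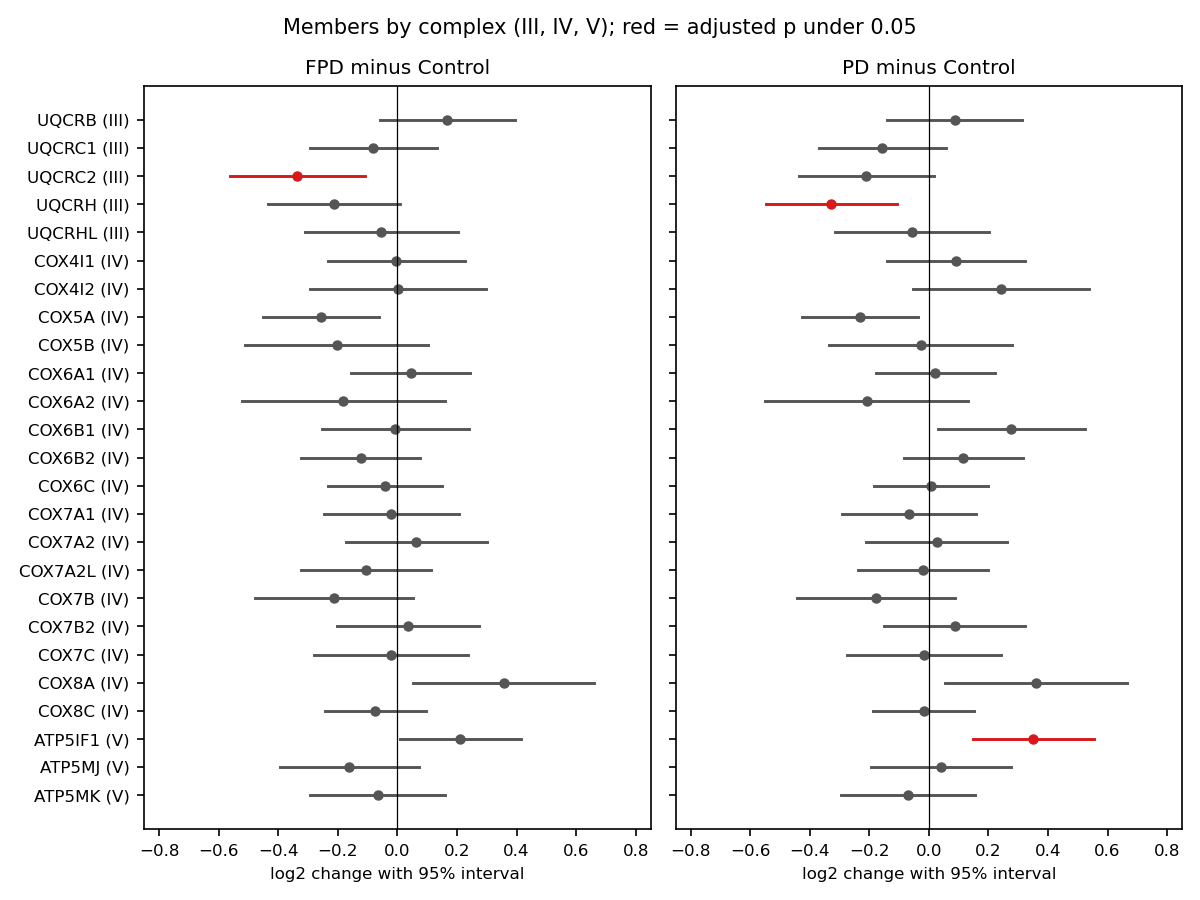
Log2 change of each of the 25 members with its 95% interval (limma, 3 arrays per group), in FPD against Control (left) and PD against Control (right), ordered by complex. Only UQCRC2 in FPD, and UQCRH and ATP5IF1 in PD, passed an adjusted p of 0.05 (red).

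Promoter sequences are shown for the 3 members called in any comparison and for COX8A, the member with the highest log2 change against Control in FPD and in PD, because these are the genes whose values the results turn on. UQCRC2 and COX8A were chosen after their values were seen. Each window runs from 250 bases before the annotated start to 30 after it, 5′ to 3′ on the plus strand of GRCh38.p14 from RefSeq, at chr1:46303448-46303727 for UQCRH, chr16:21953111-21953390 for UQCRC2, chr1:28235874-28236153 for ATP5IF1 and chr11:63974370-63974649 for COX8A. Capitals mark letters that match a searched motif.
UQCRH: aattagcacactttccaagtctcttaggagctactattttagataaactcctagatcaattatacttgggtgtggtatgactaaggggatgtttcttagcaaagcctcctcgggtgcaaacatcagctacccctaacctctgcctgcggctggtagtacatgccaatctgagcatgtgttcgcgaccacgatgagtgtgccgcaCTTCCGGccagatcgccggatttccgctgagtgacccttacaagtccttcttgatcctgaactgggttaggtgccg
UQCRC2: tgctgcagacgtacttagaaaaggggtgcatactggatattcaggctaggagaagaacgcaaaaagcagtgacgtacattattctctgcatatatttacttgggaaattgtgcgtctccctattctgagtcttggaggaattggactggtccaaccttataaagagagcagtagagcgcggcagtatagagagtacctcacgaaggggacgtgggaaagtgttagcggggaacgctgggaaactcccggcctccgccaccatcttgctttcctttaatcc
ATP5IF1: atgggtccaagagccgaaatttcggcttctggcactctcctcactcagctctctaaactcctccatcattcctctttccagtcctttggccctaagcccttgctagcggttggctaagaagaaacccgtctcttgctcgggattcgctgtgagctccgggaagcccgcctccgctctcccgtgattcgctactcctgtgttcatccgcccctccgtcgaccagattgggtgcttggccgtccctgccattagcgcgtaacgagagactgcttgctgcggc
COX8A: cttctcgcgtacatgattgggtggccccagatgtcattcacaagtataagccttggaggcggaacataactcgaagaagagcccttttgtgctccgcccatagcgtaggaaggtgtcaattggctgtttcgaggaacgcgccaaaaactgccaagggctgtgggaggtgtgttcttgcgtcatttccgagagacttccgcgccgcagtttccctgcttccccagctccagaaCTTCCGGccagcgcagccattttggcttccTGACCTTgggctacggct
UQCRH holds an ETS motif at positions -46 to -40 from its start, and COX8A holds an ETS motif at -18 to -12 and an ERR motif at 13 to 19, all on the minus strand. The windows of UQCRC2 and ATP5IF1 hold no match.

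The motifs searched, on both strands, were CCGGAAG for the ETS family, GCGCA and GCGC with any base between them for NRF1, AAGATGGC for YY1, AAGGTCA for the oestrogen-related receptors (ERR), the E-box CACGTG and AGAACA and TGTTCT with any 3 bases between them for the glucocorticoid receptor. Of the 25 members, 20 had a window. The ETS motif was found in 7 (35%), against 12.5% of 22199 protein-coding promoters and 9.94% of all 35116. Those 7 were UQCRH, COX4I1, COX5B, COX6A1, COX6B1, COX8A and ATP5MK, and their log2 changes in PD ran from -0.33 to 0.36. Of these only UQCRH was called in PD, and a link between the motif and the changes was not tested. NRF1 letters were found in 3 windows (15%, against 7.3% of protein-coding and 5.69% of all promoters), those of UQCRC1, COX8C and ATP5MJ. ERR letters were found in 2 (10%, against 3.06% and 3.7%), those of COX8A and ATP5MJ. YY1 letters (2.91% of protein-coding and 2.43% of all promoters), the E-box (8.05% and 6.94%) and the glucocorticoid receptor motif (0% and 0.00285%) were found in 0 of the 20. In ATP5MK 2 ETS matches on opposite strands overlap. A match describes letters in this window and does not show binding.

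The 2 members called lower against Control belong to complex III, but in different comparisons, UQCRH in PD and UQCRC2 in FPD. Each was the 1 lower call among the 25 members (4%), against 8.63% of all genes in PD and 5.89% in FPD. UQCRH (transcript cluster 16664272) encodes the hinge protein, an acidic subunit that contacts cytochrome c1. Its log2 expression was 6.18, 6.11 and 6.34 in FPD, 5.95, 6.28 and 6.05 in PD, 6.14, 6.25 and 6.37 in F, and 6.45, 6.36 and 6.45 in Control. All PD and all FPD arrays lay below all Control arrays, while an F array reached into the Control range. UQCRH fell by 0.33 in PD (95% interval -0.55 to -0.11, 1.26-fold lower, limma adjusted p = 0.0416), and its log2 change in FPD was -0.21 (limma adjusted p = 0.223). The PD call was lost in 10 of 20 alternative settings, whose adjusted p ran from 0.0158 to 0.162. The arrays whose removal ended it were Control replicates 1 (0.105), 2 (0.0649) and 3 (0.108), PD replicates 1 (0.162) and 3 (0.114), FPD replicate 1 (0.0562) and F replicate 2 (0.0545).

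UQCRHL (transcript cluster 16682042) is an intronless copy of UQCRH that encodes a hinge protein-like product, and probes for the pair can share signal. It read 8.99, 9.13 and 9.12 in FPD, 9.11, 9.08 and 9.04 in PD, 9.05, 9.48 and 9.08 in F, and 9.15, 9.32 and 8.93 in Control. The 4 groups overlapped. Its log2 change in PD was -0.057 (95% interval -0.31 to 0.20, limma adjusted p = 0.837), so the row of the copy did not pass the test that the row of UQCRH passed. The difference between the rows was not tested.

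UQCRC2 (transcript cluster 16816739) encodes core protein 2, a large matrix-facing subunit related to the mitochondrial processing peptidases. It read 10.20, 10.25 and 10.08 in FPD, 10.27, 10.40 and 10.25 in PD, 10.56, 10.76 and 10.73 in F, and 10.52, 10.71 and 10.31 in Control. The FPD and PD arrays lay below all F arrays, and the FPD arrays also below all Control arrays. UQCRC2 fell by 0.34 in FPD against Control (95% interval -0.56 to -0.11, limma adjusted p = 0.0497), and its log2 change in PD against Control was -0.21 (limma adjusted p = 0.232). The FPD call sat at the threshold and was lost in 13 of 20 alternative settings, with adjusted p from 0.016 to 0.217. Removal of any FPD array (0.0998, 0.0713 and 0.178), any PD array (0.0587, 0.0529 and 0.0557), F replicate 2 (0.0598) or 3 (0.0592), or Control replicate 1 (0.116) or 2 (0.217) ended it.

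Against the F arrays UQCRC2 was lower in FPD by a log2 change of -0.50 (95% interval -0.73 to -0.28, 1.42-fold lower, limma adjusted p = 0.00429), and this call held in all 20 alternative settings (adjusted p at most 0.0261). In PD against F its log2 change was -0.38 (limma adjusted p = 0.022), a call lost without PD replicate 1 (0.0635), PD replicate 3 (0.0743), F replicate 2 (0.0889) or F replicate 3 (0.0741), and with unnamed rows tested too (0.0571).

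The other complex III genes did not pass the test in any comparison. UQCRC1 encodes core protein 1, the partner of UQCRC2. It read 8.85, 8.88 and 8.94 in FPD, 8.79, 8.70 and 8.94 in PD, 8.94, 8.80 and 8.64 in F, and 9.08, 8.90 and 8.92 in Control (log2 change in PD -0.16, limma adjusted p = 0.363). In F against Control, 895 of all 14884 genes had an unadjusted p under 0.05. UQCRB, a small subunit near the ubiquinone site, was the only member among them. Its dim row read 4.48, 4.30 and 4.28 in FPD, 4.30, 4.26 and 4.25 in PD, 4.47, 4.69 and 4.46 in F, and 4.04, 4.39 and 4.12 in Control. All F arrays lay above all Control arrays (log2 change 0.35, limma adjusted p = 0.632 after adjustment over all genes).

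**Figure D2:**
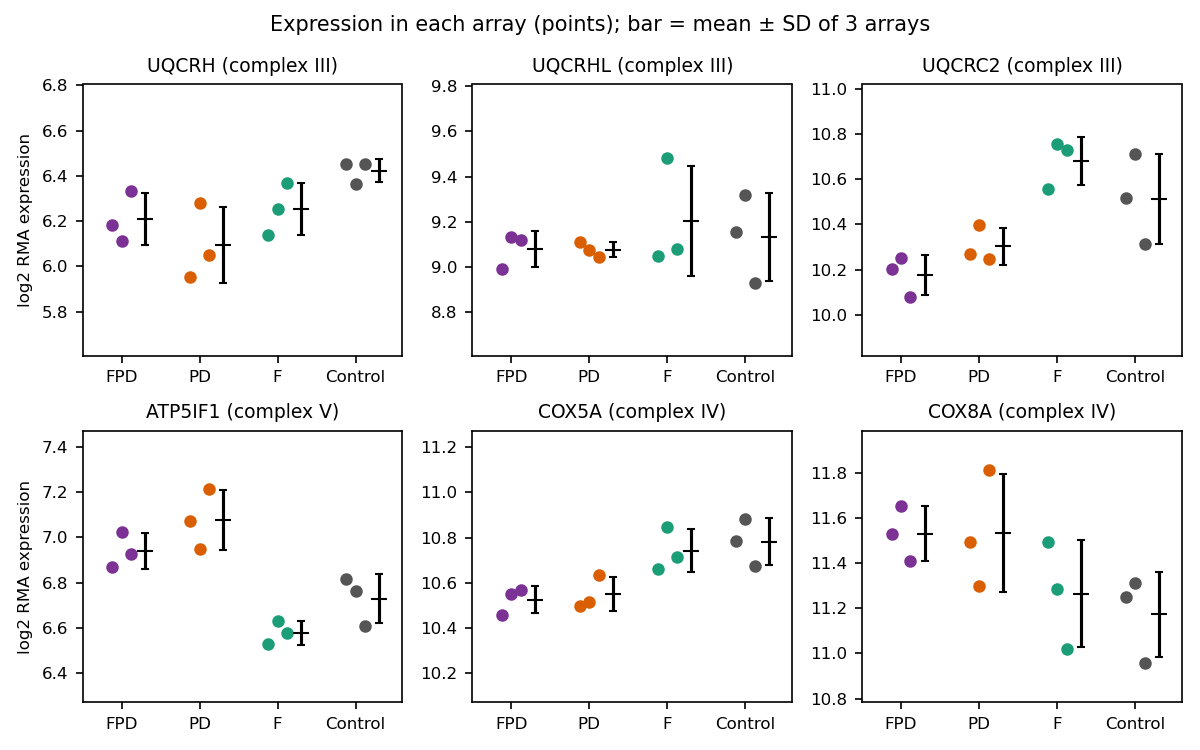
Log2 RMA expression of 6 members in each array (points, by group) with the mean and SD of 3 arrays (black). UQCRC2 is lower in the FPD and PD arrays than in all F arrays, ATP5IF1 is higher there than in all F and Control arrays, and UQCRHL overlaps in all groups; every panel spans the same log2 range.

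In complex V, the member that rose was the gene of the inhibitor and not of a structural subunit. ATP5IF1 (transcript cluster 16661533) encodes the ATPase inhibitory factor, which stops the synthase from hydrolysing ATP when the membrane potential falls. It read 6.87, 7.02 and 6.93 in FPD, 7.07, 6.95 and 7.21 in PD, 6.53, 6.63 and 6.58 in F, and 6.82, 6.76 and 6.61 in Control. Every FPD and PD array lay above every F and Control array. ATP5IF1 rose by 0.35 in PD against Control (95% interval 0.15 to 0.55, 1.27-fold, limma adjusted p = 0.0192), and its log2 change in FPD against Control was 0.21 (limma adjusted p = 0.185). The PD call was lost without PD replicate 3 (0.0896), without Control replicate 3 (0.0871) and in the compared arrays alone (0.0586).

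Against F, ATP5IF1 was higher in PD by 0.50 (95% interval 0.30 to 0.70, 1.42-fold, limma adjusted p = 0.0015), a call that held in all 20 alternative settings (adjusted p at most 0.01). In FPD against F it was higher by 0.36 (limma adjusted p = 0.0178), a call lost without FPD replicate 2 (0.0778), F replicate 1 (0.0554) or F replicate 3 (0.0506). In PD against F, 7.43% of all genes were higher and 9.91% lower (1106 and 1475 genes, against 862 and 1837 after centring arrays on the median of named genes and 1368 and 1186 after a second quantile normalization), and in FPD against F 7.5% were higher and 6.64% lower (1117 and 988 genes, against 929 and 1131 after that centring). Among the members, ATP5IF1 was the 1 higher and UQCRC2 the 1 lower in each of these comparisons. Comparisons with the F arrays and those with the Control arrays share the PD or FPD arrays.

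The other complex V members, ATP5MJ and ATP5MK, encode small subunits of the membrane part of the synthase. ATP5MJ read 6.23, 6.30 and 6.26 in FPD, 6.38, 6.48 and 6.54 in PD, 6.37, 6.66 and 6.74 in F, and 6.42, 6.59 and 6.26 in Control, and every FPD array lay below every PD and F array, with a Control array in the FPD range. In FPD against F its log2 change was -0.33 (limma adjusted p = 0.0599). ATP5MK read 6.51, 6.70 and 6.54 in FPD, 6.42, 6.65 and 6.67 in PD, 6.49, 6.78 and 6.82 in F, and 6.65, 6.67 and 6.63 in Control, with overlap among all groups (log2 change in PD -0.071, limma adjusted p = 0.754).

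None of the 17 complex IV genes passed the test in any of the 7 comparisons. An unadjusted p under 0.05 was reached by 2 of them in FPD against Control and by 3 in PD against Control. Over all 14884 genes it was reached by 3641 in FPD and 3947 in PD, so neither share stood above the background. COX5A, a matrix-facing subunit, read 10.46, 10.55 and 10.57 in FPD, 10.50, 10.51 and 10.63 in PD, 10.66, 10.85 and 10.72 in F, and 10.79, 10.88 and 10.67 in Control. All FPD and PD arrays lay below all F and Control arrays, by log2 changes against Control of -0.26 in FPD (limma adjusted p = 0.0825) and -0.23 in PD (0.108). COX5A passed with a trended, robust estimate of the spread in both comparisons (0.0301 in FPD and 0.0435 in PD), and in FPD also among genes with a mean above the median of named genes (0.0433).

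COX8A, the ubiquitous form of the smallest subunit, read 11.53, 11.65 and 11.41 in FPD, 11.49, 11.30 and 11.81 in PD, 11.49, 11.28 and 11.02 in F, and 11.25, 11.31 and 10.96 in Control. It had the highest log2 change against Control of all members, 0.36 in both FPD (limma adjusted p = 0.127) and PD (0.112), with a PD array inside the Control range. COX6B1, which joins the monomers of the enzyme on its outer face, read 7.63, 7.77 and 7.57 in FPD, 7.99, 7.79 and 8.04 in PD, 7.76, 7.84 and 8.03 in F, and 7.69, 7.85 and 7.45 in Control. Its log2 change was 0.28 in PD (limma adjusted p = 0.133) and -0.0077 in FPD (0.98), and the departure from additivity, FPD minus PD minus F plus Control, was -0.50 (95% interval -0.85 to -0.15, limma adjusted p = 0.888). If the F cells received dexamethasone, as their label adds, this contrast would subtract dexamethasone with both PD and F, and would not measure additivity for any gene.

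A switch within the isoform pairs was not tested, and with all arrays none of their genes passed the test in any comparison. COX4I1, the ubiquitous form of subunit 4, read 9.69, 9.70 and 9.95 in FPD, 9.76, 9.96 and 9.90 in PD, 9.63, 9.76 and 9.76 in F, and 9.98, 9.64 and 9.73 in Control. COX4I2, the form known from lung and low oxygen, read 5.55, 5.54 and 5.45 in FPD, 5.58, 5.74 and 5.95 in PD, 5.60, 5.73 and 5.58 in F, and 5.90, 5.28 and 5.35 in Control. Control replicate 1 stood apart in COX4I2. Its log2 change in PD was 0.24 (limma adjusted p = 0.3) with that array and 0.44 (limma adjusted p = 0.0181) without it. For COX4I1 the change in PD was 0.091 (limma adjusted p = 0.678).

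COX7A2, the ubiquitous form of subunit 7A, read 6.81, 6.87 and 6.95 in FPD, 6.58, 6.85 and 7.09 in PD, 6.81, 6.80 and 6.90 in F, and 6.80, 6.75 and 6.88 in Control. The dim row of its muscle form COX7A1 read 4.33, 4.25 and 4.22 in FPD, 4.12, 4.34 and 4.19 in PD, 4.30, 4.52 and 4.31 in F, and 4.49, 4.19 and 4.17 in Control. COX7A2L, a factor that joins complexes III and IV into supercomplexes, read 5.67, 5.60 and 5.59 in FPD, 5.58, 5.85 and 5.67 in PD, 5.62, 5.81 and 5.89 in F, and 5.62, 5.86 and 5.68 in Control. Groups overlapped in all of these between PD and Control.

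Among the small structural subunits, COX7B read 7.02, 7.10 and 6.87 in FPD, 6.98, 6.98 and 7.14 in PD, 7.01, 7.32 and 7.44 in F, and 7.36, 7.30 and 6.97 in Control. COX7C read 8.17, 8.33 and 8.42 in FPD, 8.24, 8.40 and 8.30 in PD, 8.17, 8.57 and 8.63 in F, and 8.41, 8.41 and 8.16 in Control. In both genes Control replicate 3 was the lowest of its group. COX5B, a zinc-binding matrix subunit, read 7.01, 7.01 and 7.21 in FPD, 7.41, 7.08 and 7.26 in PD, 7.26, 7.57 and 6.97 in F, and 7.43, 7.38 and 7.03 in Control, again with Control replicate 3 lowest.

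COX6A1, the ubiquitous form of subunit 6A, had 2 rows. The brighter one (transcript cluster 17008088), which stood for the gene, read 11.70, 11.67 and 11.65 in FPD, 11.59, 11.60 and 11.77 in PD, 11.58, 11.71 and 11.55 in F, and 11.78, 11.55 and 11.56 in Control. The other (transcript cluster 16757886) lay between 2.46 and 3.23 in all 12 arrays. The rows thus disagree on whether the gene is detected, and which of them measures it was not tested. The count of members above the level margin and the complex IV results rest on the brighter row for this gene. COX6A1 lies on chromosome 12, and the cluster numbers of the other members run in blocks by chromosome. The number of the brighter row falls between those of COX7C on chromosome 5 and COX7A2 on chromosome 6. That of the other row falls between those of COX8A on chromosome 11 and COX8C on chromosome 14. None of the remaining dim rows passed the test in any comparison. COX6A2 ran from 3.63 to 4.49, COX6B2 from 3.90 to 4.32, COX7B2 from 2.68 to 3.14 and COX8C from 2.58 to 2.77. The PD and Control arrays did not overlap in COX6A2 (log2 change -0.21, limma adjusted p = 0.467), and the FPD and PD arrays did not overlap in COX6B2 (-0.24, limma adjusted p = 0.492). In COX6B2 the PD arrays also lay above all F and Control arrays, and the FPD arrays below all Control arrays. The FPD arrays of COX8C lay below all others. How often arrays fail to overlap over all genes was not counted, for these or any other members.

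The filanesib arm F, whose label adds dexamethasone, left the members without a call. In F against Control 0 of 25 members passed the test in either direction, against 0.00672% of all genes higher and 0% lower. An unadjusted p under 0.05 was reached by 1 member and by 895 of all 14884 genes. No member passed with a trended, robust estimate of the spread either. Among the 18 members above the level margin, the 95% intervals ran from -0.39 (UQCRH) to 0.46 (COX6B1), which allows changes of up to 1.31-fold lower and 1.38-fold higher. Filanesib added to pomalidomide plus dexamethasone gave 0 calls among the members in FPD against PD, with 0.0336% of all genes higher and 0% lower. Here 2 of the 25 members and 1283 of all 14884 genes had an unadjusted p under 0.05. The lowest change there was that of COX6B1 (-0.28, limma adjusted p = 0.509). The departure from additivity was called for 0 members and 0% of all genes. It had an unadjusted p under 0.05 in 833 of all 14884 genes and in 2 members, COX6B1 and ATP5MJ (-0.37, 95% interval -0.70 to -0.038, limma adjusted p = 0.888).

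The counts in lists of genes that build and supply the complexes are set against 5.89% of all genes lower and 7.26% higher in FPD, and 8.63% lower and 6.84% higher in PD, each against Control. Mitochondrial import genes, which carry nuclear-encoded subunits across the mitochondrial membranes, had 10 of 18 measured members lower in PD (55.6%) and 8 lower in FPD (44.4%), with none higher. The median log2 change was -0.39 in each comparison. TOMM40, the pore of the outer membrane translocase, read 9.74, 9.54 and 9.57 in FPD, 9.42, 9.43 and 9.61 in PD, 10.37, 10.24 and 10.14 in F, and 10.31, 10.28 and 10.39 in Control. FPD and PD arrays lay below all F and Control arrays. It fell by 0.71 in FPD (limma adjusted p = 0.000104) and by 0.84 in PD (2.01e-05). With the mean of the gene's rows in place of the brightest row, the log2 change in PD was -0.53 (limma adjusted p = 0.0253). TIMM44, which anchors the import motor, fell by 0.54 in FPD and by 0.63 in PD. The highest values in this list were those of TOMM7 (0.18 in FPD and 0.31 in PD, limma adjusted p = 0.317 and 0.0505) and TIMM17B (0.19 in FPD and 0.23 in PD, limma adjusted p = 0.359 and 0.248). TOMM7 passed in PD without PD replicate 1 (0.0343) or PD replicate 3 (0.0454).

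Of 11 measured regulators of mitochondrial gene expression, 5 were lower in each comparison and none higher (45.5% in each, against 5.89% of all genes in FPD and 8.63% in PD; median log2 change -0.20 in FPD and -0.345 in PD). TWNK, the mitochondrial DNA helicase, fell by 0.60 in FPD and by 0.59 in PD. LRPPRC, which stabilises mitochondrial mRNAs, fell by 0.48 in FPD and by 0.43 in PD, and its partner SLIRP fell by 0.45 in FPD and by 0.53 in PD. The nuclear receptor gene ESRRA, whose product drives respiratory genes, fell by 0.47 in FPD and by 0.45 in PD. NRF1, another such factor, had log2 changes of 0.069 in FPD and -0.19 in PD, YY1 of 0.14 in FPD and -0.058 in PD, and MTERF2 of -0.11 in PD, none of which passed the test. ESRRA also had a log2 change of -0.31 in F against Control (limma adjusted p = 0.5725). Against F it did not pass the test in FPD (-0.16, limma adjusted p = 0.287) or in PD (-0.14, 0.34). The FPD count was 3 without FPD replicate 1, FPD replicate 2 or Control replicate 2. TWNK lost its call in FPD without FPD replicate 2 (0.0677) and in PD without PD replicate 3 (0.0583). MYC, which promotes many mitochondrial genes in other cells, averaged 9.82 ± 0.08 in FPD, 10.14 ± 0.07 in PD, 10.53 ± 0.07 in F and 10.65 ± 0.04 in Control (SD, n = 3), and fell by 0.83 in FPD and by 0.52 in PD.

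Of 12 measured genes of the TCA cycle and pyruvate dehydrogenase, 3 fell in FPD (25%, against 5.89% of all genes) and 4 in PD (33.3%, against 8.63%), and none rose (median -0.20 in FPD and -0.24 in PD). IDH3A, a subunit of isocitrate dehydrogenase, read 6.65, 6.69 and 6.45 in FPD, 6.47, 6.62 and 6.59 in PD, 7.17, 7.23 and 7.16 in F, and 7.19, 7.38 and 7.05 in Control, a fall by 0.61 in FPD and by 0.65 in PD. DLAT, the acetyltransferase of pyruvate dehydrogenase, fell by 0.35 in FPD and by 0.55 in PD. IDH3G (-0.042 in FPD and 0.031 in PD), DLST (0.045 in FPD) and MPC2 (0.061 in PD) did not pass. The FPD count was 1 without FPD replicate 3 or Control replicate 2, where DLAT lost its call (0.0526 and 0.066), and the PD count was 2 without PD replicate 2 or Control replicate 2.

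Of 39 measured assembly factors, 4 fell (10.3%, against 5.89% of all genes) and 1 rose (2.56%, against 7.26%) in FPD, and 7 fell (17.9%, against 8.63%) and 1 rose (2.56%, against 6.84%) in PD. The median was -0.095 in FPD and -0.068 in PD. COA7, a complex IV assembly factor, read 7.16, 6.88 and 6.90 in FPD, 6.69, 6.66 and 6.69 in PD, 7.62, 7.68 and 7.38 in F, and 7.36, 7.67 and 7.34 in Control, and fell by 0.48 in FPD and by 0.78 in PD. COA4 fell by 0.37 in FPD and PET117 by 0.48 in PD. SURF1, also a complex IV assembly factor, rose by 0.48 in FPD (limma adjusted p = 0.0461) and by 0.58 in PD (0.014), and its Control arrays spread widely, at 6.90, 6.18 and 6.38. COA3 had a log2 change of 0.28 in PD (limma adjusted p = 0.153) and COX14 of 0.27 in FPD (0.153), which passed without Control replicate 3 (0.0176). The count lower in PD was 3 without PD replicate 3, 4 without Control replicate 1 and 3 without Control replicate 2. In FPD it was 1 without FPD replicate 1 or Control replicate 2, and 2 without FPD replicate 2 or Control replicate 1.

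Single calls in this list also rested on few arrays. SURF1 was lost in PD without PD replicate 2 (0.0604), Control replicate 2 (0.0802) or Control replicate 3 (0.0557). In FPD it was lost without any FPD array, PD replicates 2 or 3, F replicates 1 or 2, or Control replicates 2 or 3 (0.0503 to 0.214). PET117 was lost in PD without PD replicate 2 (log2 change -0.30, 0.1), Control replicate 1 (0.0514) or Control replicate 2 (0.0907). COA4 was lost in FPD without FPD replicate 1 (0.0507), FPD replicate 3 (0.0721) or Control replicate 2 (0.0734), and COA7 without Control replicate 2 (0.0557).

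The list of carriers and subunits outside the symbol patterns had 7 measured genes, of which ATP5IF1 is also a member described above. In each of FPD and PD 3 of them fell (42.9%, against 5.89% of all genes in FPD and 8.63% in PD). In PD 1 rose, ATP5IF1 (14.3%, against 6.84% of all genes), and in FPD none rose (against 7.26%). DHODH, which feeds electrons from pyrimidine synthesis into ubiquinone, read 7.40, 7.30 and 7.31 in FPD, 7.49, 7.42 and 7.42 in PD, 8.17, 8.22 and 8.12 in F, and 8.22, 8.24 and 8.02 in Control. FPD and PD arrays lay below all others, with a fall by 0.82 in FPD (limma adjusted p = 1.35e-05) and by 0.71 in PD (4.08e-05). The outer membrane channel genes VDAC1 (0.42 in FPD and 0.52 in PD) and VDAC3 (0.28 in FPD and 0.34 in PD) fell by the sizes given. ETFDH had log2 changes of 0.053 in FPD and 0.0034 in PD. CYC1, the cytochrome c1 subunit of complex III, averaged 9.22 ± 0.02 in FPD, 9.27 ± 0.19 in PD, 9.41 ± 0.12 in F and 9.48 ± 0.11 in Control (SD, n = 3) and did not pass the test in either comparison. None of the 13 mitochondrially encoded subunits had a named row. The difference in the share called between the subunit genes and these lists was not tested.

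**Figure D3:**
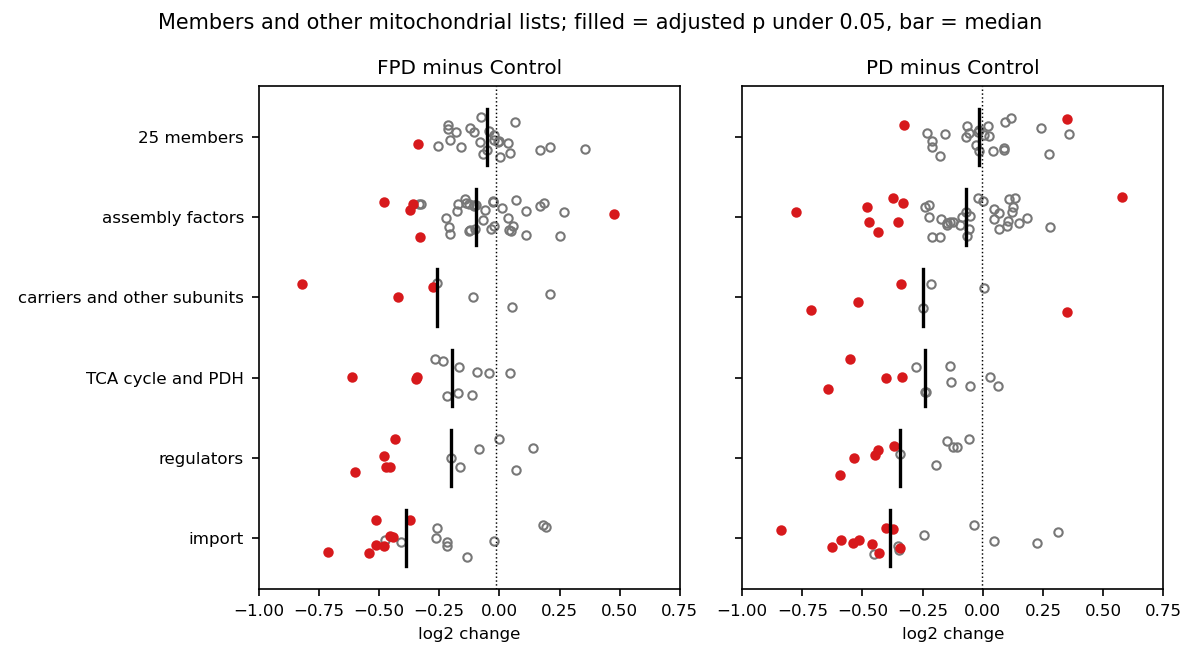
Log2 changes of the 25 members and of the measured genes of 5 other mitochondrial lists in FPD against Control (left) and PD against Control (right); filled points passed an adjusted p of 0.05, bars are list medians, the dotted line is the median of all genes, and ATP5IF1 appears in 2 lists. The medians of the import list lie at -0.39 in both panels, against -0.054 and -0.016 for the members.

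The typical level of the members also differed between arrays of the same group. The median deviation of the 25 members from their own 12-array means ran from -0.079 to -0.025 in FPD, from -0.050 to 0.044 in PD, from -0.059 to 0.11 in F, and from -0.083 to 0.047 in Control. The median over all genes stayed within -0.0092 and 0.010 in every array. Control replicate 3 was the lowest of its group in 16 members, PD replicate 1 in 16 and F replicate 1 in 17, and the highest of its group was PD replicate 3 in 15 and F replicate 2 in 13. The part of these array differences in the member changes was not tested.

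**Figure D4:**
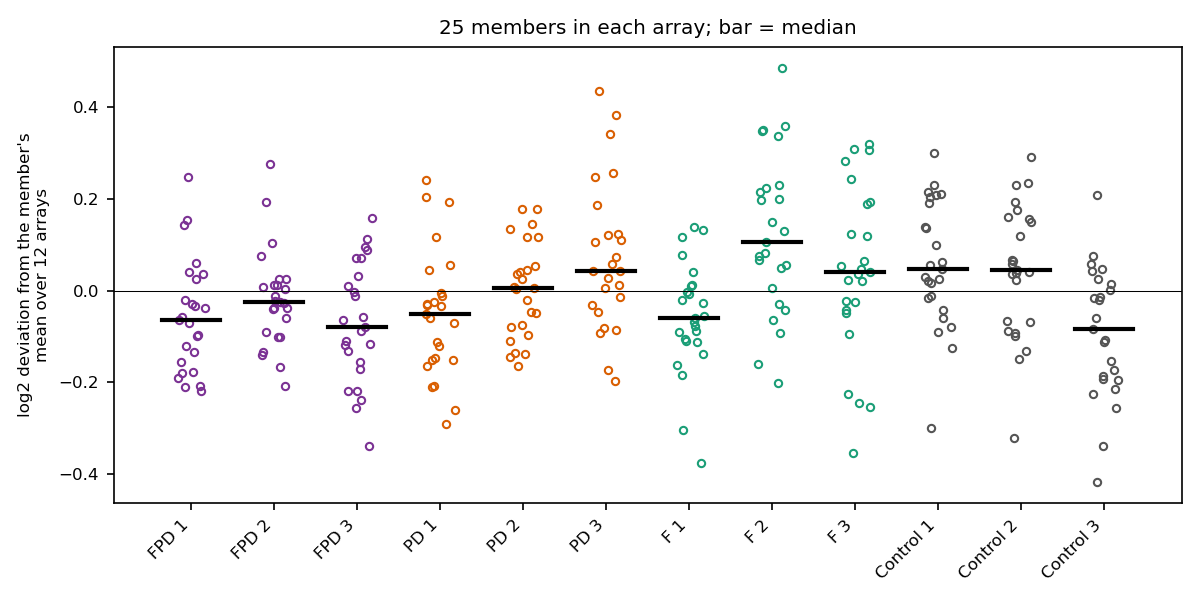
Deviation of each of the 25 members from its own mean over the 12 arrays (log2, open points) in every array, with the median as a bar. The median is lowest in Control replicate 3 (-0.083) and highest in F replicate 2 (0.11).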

How the data were processed

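Total RNA of 12 MM.1S samples was biotin-labelled and hybridised to 1 Affymetrix array each, per the labels' protocols. Per the submitters' processing notes, the authors made the deposited log2 values with RMA in Affymetrix Expression Console. This method corrects background, normalizes arrays to 1 distribution and summarises probes, so changes in total RNA per cell would not show and fold changes of dim genes are understated. Neither versions nor a genome build are named in the sources used here. The number of arrays limits the precision.

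Of 53617 rows, 16098 had 1 gene symbol and are the named rows. The other 37519 had no symbol or more than 1, which were not counted apart. All 14884 genes matched RefSeq (GRCh38.p14), used for names, biotypes, chromosomes and promoters. For 779 genes with several rows the row with the highest mean stood for the gene. A group-means model was fitted to all 12 arrays and all named genes with limma 3.58.1 in R 4.3.3 (lmFit, eBayes, 8 residual degrees of freedom), with 7 contrasts, two-sided tests and Benjamini-Hochberg adjustment over all genes. An adjusted p under 0.05 was called. The model was tested on simulated data.

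Members, lists and rules were chosen with earlier results of these data known. Values by array were given for called members, the extremes of each complex in PD against Control, and genes fixed by name, of which UQCRFS1 and the complex I, II and catalytic complex V genes were not analysed here. Other members were added after their values were seen. Lists give the 2 highest and 2 lowest changes. Isoform proteins were not printed, as no protein sequences were used here. Replicate numbers were not used to pair the samples in the main model. Deviations of same-numbered arrays correlated at -0.256 to 0.158, and those of other arrays at -0.203 to 0.235. Between FPD and F, same-numbered arrays correlated at 0.083 to 0.124 and the others at -0.085 to -0.022. Between PD and Control, same-numbered arrays correlated at -0.256 to -0.0056. Whether the numbers pair arrays of some groups was not tested.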

Additional observations from a re-analysis of the deposited data

How the results depend on the processing

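A total of 20 alternative settings were run, 19 for the departure from additivity. Of 63 gene values followed, 54 kept their sign in all settings and 36 also kept their side of the threshold. The number of members higher in PD was 0 to 2 (and lower 0 to 1) when single arrays were left out. In the compared arrays alone it was 0 higher and 0 lower, and the number lower was also 0 after a second quantile normalization and over all rows, and 2 with trended, robust moderation. In FPD the number of members lower was 0 to 1 without single arrays, 0 under requantiling, in the compared arrays alone and over all rows, and 2 among brighter genes and with trended moderation. In FPD against F it was 0 to 1 higher and 1 to 2 lower without single arrays, and 2 lower among brighter genes and after centring on the median. In PD against F the number lower was 0 to 1 without single arrays and 0 over all rows.

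Assembly factors lower in PD numbered 3 to 7 without single arrays, 3 after requantiling, 3 in the compared arrays alone and 2 over all rows. Those higher numbered 0 to 1, and 0 over all rows. In FPD 1 to 4 were lower and 0 to 1 higher without single arrays, 2 lower over all rows, and 0 higher after requantiling, over all rows, in the compared arrays alone and with the replicate block. Import genes higher in PD numbered 0 to 1 without single arrays and 1 with mean rows, among brighter genes, after requantiling and with trended moderation. TCA cycle genes lower were 2 to 4 in PD (2 over all rows) and 1 to 3 in FPD without single arrays. Regulators lower in FPD were 3 to 5 without single arrays and 2 over all rows. Carriers higher in PD were 0 to 1 without single arrays and 0 in the compared arrays alone.

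The sign turned in genes near 0. COX7A2 in PD was -0.0059 after centring and ran from -0.099 to 0.16 without single arrays, ETFDH was -0.029 after centring (-0.047 to 0.072), and IDH3G was -6e-04 after centring (-0.027 to 0.11). Without single arrays ATP5MK ran from -0.12 to 0.011, COX7A1 from -0.13 to 0.039 and MPC2 from -0.057 to 0.16 in PD, and COX6B1 from -0.12 to 0.087, IDH3G from -0.093 to 0.039 and NRF1 from -0.014 to 0.13 in FPD.

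Over all genes, F against Control gave 0 to 4 higher, FPD against PD 0 to 28 higher and 0 to 4 lower, FPD against Control 716 higher and 580 lower over all rows (1080 and 876 as reported), and FPD against F 741 and 641 (1117 and 988). With the replicate number as a block, 4 of 111 values changed: all genes higher were 0 in F against Control and in FPD against PD, and SURF1 in FPD lost its call (limma adjusted p = 0.0655), which left 0 assembly factors higher. The cause of these changes was not tested. With 3 arrays per group, the smallest change called among the members was the fall by 0.33 of UQCRH in PD.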

Other observations

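Other rows whose symbols begin like those of the members are not protein-coding and entered no count. The antisense RNA NDUFB2-AS1 (transcript cluster 17063628), which lies beside a complex I gene, read 6.20, 6.32 and 6.13 in FPD, 6.32, 6.75 and 6.61 in PD, 6.34, 6.19 and 6.25 in F, and 6.27, 6.31 and 6.25 in Control. PD replicates 2 and 3 lay above all other arrays (log2 change in PD against Control 0.28, limma adjusted p = 0.186 over all rows). The divergent transcript NDUFA6-DT had a row at 5.65 to 6.04 (transcript cluster 16930884) and a dim row at 3.35 to 3.98 (transcript cluster 16930868). The pseudogene UQCRBP1 read 2.73 to 3.35 over the 12 arrays, below all array medians.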
